A study of Drosophila melanogaster with 13 samples.

Results

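Peptidoglycan recognition proteins (PGRPs) are the sensors by which insects detect the cell walls of bacteria. The 10 genes described here are 9 PGRP genes (PGRP-SA, PGRP-SB1, PGRP-SC2, PGRP-SD, PGRP-LA, PGRP-LB, PGRP-LC, PGRP-LE and PGRP-LF) and pirk, an intracellular inhibitor of PGRP-LC. They were chosen by gene symbol, with earlier results of these data known, out of 13893 genes in the deposited tables, and all 10 had counts. RNA had been sequenced from dissected proboscises of Drosophila melanogaster, labelled as labellum, the tip of the proboscis that carries the taste hairs. In the diet experiment flies of the parental genotype spent 7 days on a high sugar diet (n = 2 libraries) or on the normal cornmeal diet, called control diet here (n = 2), with 200 proboscises in each library. In the RNAi experiment every fly had 7 days of the high sugar diet and bore Gr5a-GAL4, which drives expression in the sweet-sensing neurons. The driver was combined with UAS-OGT RNAi, a transgene against the O-GlcNAc transferase OGT (OGT RNAi, n = 5), or was present alone (Gr5a-GAL4 / +, called Gal4 control, n = 4), with 20 proboscises in each library. Both experiments therefore used pools of flies, and RNA interference was driven in a small part of the cells sampled.

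In flies, PGRP-LC at the cell surface and PGRP-LE, in the cytoplasm and outside cells, bind the peptidoglycan typical of Gram-negative bacteria and start the Imd pathway, which ends at the NF-κB factor Relish (Rel) and switches on antimicrobial peptide genes. PGRP-SA and PGRP-SD circulate and take part in sensing Gram-positive bacteria for the Toll pathway, and PGRP-SD also brings peptidoglycan to the Imd receptor. Several family members are brakes. PGRP-LB, PGRP-SB1 and PGRP-SC2 are amidases that cut peptidoglycan, PGRP-LF is a membrane protein that blocks PGRP-LC, and pirk removes PGRP-LC from the cell surface. Some of these brakes are themselves targets of Relish, so they form a feedback loop.

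Total estimated counts ranged from 5632598 to 13884994 per library, so that a gene with no counts could still have been present at up to 3 counts, or 0.216 to 0.533 CPM (counts in a library of 1000000), as far as counting error goes. All 12 labellum and taste markers, among them the sweet receptor gene Gr5a and the labellum-enriched Obp49a, were above 0 in each group. The OGT gene, sxc, had 142.5 ± 15.5 CPM in OGT RNAi and 162.3 ± 14.3 CPM in Gal4 control libraries (SD, n = 5 and 4), a log2 change of -0.19 (adjusted p = 0.376). The driver acts in sweet neurons only, and this whole-tissue value was not past the threshold. Levels between samples are given as CPM after TMM scaling (trimmed mean of M-values), and differences as the log2 change of edgeR's quasi-likelihood test, called at an adjusted p (Benjamini-Hochberg, over all genes tested) under 0.05. Because kit, input and genotype differed between the experiments, each was tested on its own.

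Within a library, levels of different genes were compared as TPM, the length-corrected abundance that kallisto scales within each library. PGRP-LC had the highest mean TPM of the 10 genes in all 4 groups, and PGRP-LA, a membrane-associated relative encoded next to it, was second. PGRP-LC had 51.9 and 68.8 TPM in sugar diet libraries and 87.2 and 87.2 TPM in control diet libraries. It had 83.7 to 100.4 TPM in OGT RNAi libraries and 93.1 to 97.2 TPM in Gal4 control libraries. PGRP-LA had 32.5 and 40.8 TPM on the sugar diet and 52.3 and 56.3 TPM on the control diet, and averaged 80.1 ± 5.90 TPM in OGT RNAi and 81.2 ± 4.04 TPM in Gal4 control libraries (SD, n = 5 and 4). The ranges of PGRP-LC and PGRP-LA overlapped in OGT RNAi libraries and did not overlap in the other groups.

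The middle of the order was held by PGRP-SD, PGRP-LB, PGRP-SB1, PGRP-LF, PGRP-LE and pirk, with group means between 8.64 TPM for pirk on the sugar diet and 57.1 TPM for PGRP-SB1 with OGT RNAi. Under OGT RNAi the ranges of PGRP-SB1, PGRP-SD, PGRP-LF, PGRP-LB, pirk and PGRP-LE overlapped from each gene to the next, and in the Gal4 control libraries the order ran through the same genes, with PGRP-SD before PGRP-SB1. The 2 lowest genes were PGRP-SA and PGRP-SC2 in each group. PGRP-SA averaged 7.01 TPM on the sugar diet, 5.53 TPM on the control diet, 4.15 TPM with OGT RNAi and 4.79 TPM in Gal4 controls. TPM is a share of the library, and the single gene Arc1 took 12.6 and 13.4% of counts on the sugar diet, against 7.40 and 7.51% on the control diet. The diets were therefore compared on CPM, with limma on TPM as an alternative only, and the TPM values above serve to order genes within a group.

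Of the other 4 PGRP genes of the fly, PGRP-SB2, PGRP-SC1a and PGRP-SC1b had 0 counts in all 13 libraries. PGRP-LD was present at 3.83 ± 0.449 CPM in sugar diet and 3.14 ± 1.39 CPM in control diet libraries (SD, n = 2 each), with a log2 change of 0.29 (adjusted p = 0.768). It had 9.43 ± 2.12 CPM with OGT RNAi and 9.95 ± 0.658 CPM in Gal4 controls (n = 5 and 4), a log2 change of -0.10 (adjusted p = 0.835). PGRP-SC2 was thus the only gene of the SC group with counts here.

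The first comparison addressed the effect of the sugar diet. No gene of the group gave a call that held over the alternative settings. PGRP-SC2, a secreted amidase known from the gut, was the only one of the 10 genes called, at a lower level on the sugar diet, but from few counts and not without either control diet library. The amidases PGRP-LB and PGRP-SB1, the decoy receptor PGRP-LF and pirk were all lower in both sugar diet libraries than in either control diet library, without passing the threshold over all genes. The receptors PGRP-LC and PGRP-LA were lower by less, and PGRP-LE and PGRP-SD overlapped between diets. PGRP-SA had the only sizeable positive log2 change.

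In counts over the 10 genes, 1 was called, against 6.47% of the 8825 genes tested. An unadjusted p under 0.05 was reached by 7 of the 10, against 17.7% of all genes. The groups did not overlap for 8 of the 10, against 47.5% of all genes, and of these 7 were lower on the sugar diet, against 23.9%. The median log2 change was -0.41 over the 10 genes and 0.00 over all genes, of which 49.4% were negative. Of the 9 genes other than PGRP-SC2, 0 were called, 6 had an unadjusted p under 0.05 and 6 were lower without overlap, with a median of -0.36. The called share thus rests on 1 gene, PGRP-SC2, and is 0 of 9 without it, so it cannot be read as above or under the background. The shares for unadjusted p and for lower, non-overlapping values stood above the background. The 10 genes were chosen with earlier results of these data known, so these shares describe the group and do not test it. In whole tissue, fewer cells of a type and less RNA per cell cannot be told apart.

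**Figure D1:**
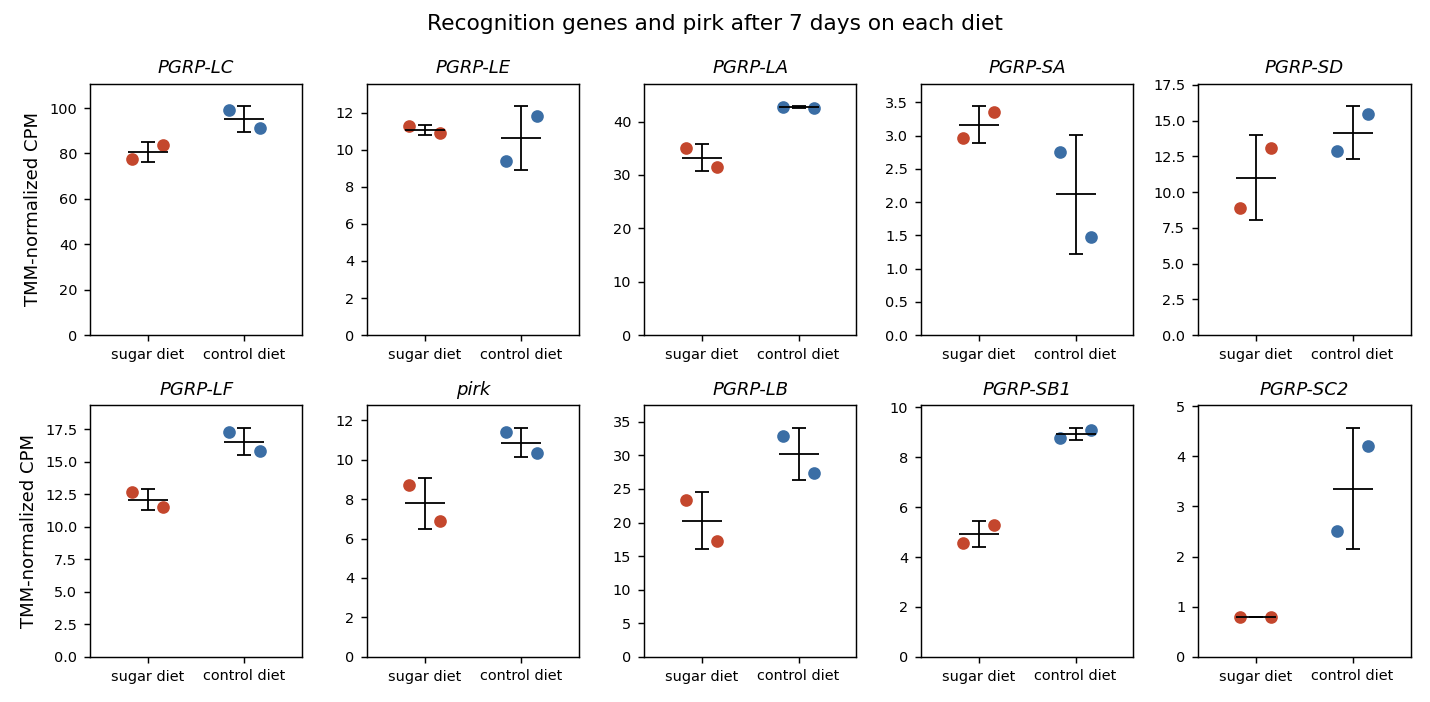
TMM-normalized CPM (vertical axis, from 0) of the 10 genes in the sugar diet (left, red) and control diet (right, blue) libraries, 1 point per library, with a line for the mean and bars for the SD (n = 2 each). The upper row holds receptors and sensors and the lower row inhibitors and amidases. All 5 genes of the lower row have both red points under both blue points, as do 23.9% of all genes tested. Of these 5, PGRP-SC2 rests on 4 and 5 counts in the sugar diet libraries.

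Among the inhibitors and amidases, PGRP-SC2 (FBgn0043575, chromosome 2R, 8716950 to 8717695, plus strand, release 6 of the genome) had 0.791 and 0.799 CPM on the sugar diet, against 2.50 and 4.21 CPM on the control diet. These values rest on 4 and 5 counts in the sugar diet libraries and on 20 and 37 counts in the control diet libraries, so the gene passed the filter on low counts only through the diet where it was high. Exact Poisson intervals (95%, counting error only) ran from 1.09 to 10.2 and from 1.62 to 11.7 counts on the sugar diet and from 12.2 to 30.9 and from 26.1 to 51.0 counts on the control diet. The log2 change was -2.06 (SE 0.52, adjusted p = 0.0225 by edgeR's quasi-likelihood test), and with no such filter the adjusted p was 0.00282. The call ended without control diet replicate 1 (log2 change -2.38, adjusted p = 0.0642) or replicate 2 (-1.63, adjusted p = 0.456). DESeq2 gave it no adjusted p, and in the authors' deposited table, made with sleuth, it had a q of 0.156.

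PGRP-SB1 (FBgn0043578, chromosome 3L, 16727299 to 16727989, minus strand), an amidase secreted during infection, had 4.55 and 5.28 CPM on the sugar diet, against 8.76 and 9.09 CPM on the control diet. The groups stood apart with little spread within each, and the log2 change was -0.85 (SE 0.25, adjusted p = 0.0568). PGRP-LB (FBgn0037906, chromosome 3R, 11452849 to 11460552, minus strand), the main amidase that limits Imd signalling, had 23.3 and 17.3 CPM on the sugar diet, against 32.9 and 27.4 CPM on the control diet. Its log2 change was -0.58 (SE 0.17, adjusted p = 0.0508). Neither was called, and the settings moved both ways. With no filter on low counts both passed the threshold (adjusted p = 0.0307 for PGRP-SB1 and 0.00500 for PGRP-LB), and PGRP-LB passed it without sugar diet replicate 1 (-0.80, adjusted p = 0.000528). Without sugar diet replicate 2 the log2 change of PGRP-LB was -0.37 (adjusted p = 0.225), without control diet replicate 1 its adjusted p was 0.479, and with DESeq2 it was 0.250. For PGRP-SB1 the adjusted p was 0.150 without sugar diet replicate 1 and 0.263 and 0.305 without control diet replicates 1 and 2.

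PGRP-LF (FBgn0035977, chromosome 3L, 9349609 to 9351489, plus strand) had 12.7 and 11.5 CPM on the sugar diet, against 17.3 and 15.8 CPM on the control diet (log2 change -0.46, SE 0.18, adjusted p = 0.182). The inhibitor gene pirk (FBgn0034647, chromosome 2R, 21660967 to 21662995, minus strand) had 8.70 and 6.87 CPM on the sugar diet, against 11.4 and 10.3 CPM on the control diet (log2 change -0.49, SE 0.22, adjusted p = 0.262). For both genes the diets did not overlap, and neither was called. All 5 inhibitors and amidases thus had negative log2 changes, against 49.4% of all genes tested. Their median was -0.58 and their range ran from -2.06 to -0.46. The -2.06 belongs to PGRP-SC2, which passed the filter on low counts only through the control diet. Of the 7 tested Imd brakes outside the 10 genes, 1 had a negative log2 change.

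Among the receptors and sensors 3 of 5 log2 changes were negative, with a median of -0.23. PGRP-LC (FBgn0035976, chromosome 3L, 9338810 to 9348336, plus strand) had 77.7 and 83.9 CPM on the sugar diet, against 99.1 and 91.2 CPM on the control diet (log2 change -0.23, SE 0.09, adjusted p = 0.191). PGRP-LA (FBgn0035975, chromosome 3L, 9334332 to 9338336, plus strand), which in flies promotes Imd signalling in barrier epithelia, had 35.0 and 31.5 CPM on the sugar diet, against 42.8 and 42.5 CPM on the control diet. Its log2 change was -0.36 (SE 0.13, adjusted p = 0.122), and it was called only when sugar diet replicate 1 was left out (-0.44, adjusted p = 0.0439). The genes PGRP-LA, PGRP-LC and PGRP-LF lie in this order on one strand, with 473 bases between the first pair and 1272 bases between the second. All 3 were lower in both sugar diet libraries, as were 23.9% of all genes tested, and none was called with all libraries. A link between their position and their levels was not tested.

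PGRP-LE (FBgn0030695, chromosome X, 15801153 to 15803880, minus strand) had 11.3 and 10.9 CPM on the sugar diet, against 9.38 and 11.8 CPM on the control diet. The sugar diet values lay within the control diet range (log2 change 0.06, SE 0.21, adjusted p = 0.931), and with limma on log2(TPM + 1) its log2 change was -0.16, against a median of -0.25 over all genes. PGRP-SD (FBgn0035806, chromosome 3L, 7651180 to 7651900, plus strand) had 8.90 and 13.1 CPM on the sugar diet, against 12.9 and 15.5 CPM on the control diet, and also overlapped (log2 change -0.35, SE 0.21, adjusted p = 0.436). PGRP-SA (FBgn0030310, chromosome X, 11561643 to 11562779, plus strand) had 2.97 and 3.36 CPM on the sugar diet, against 2.75 and 1.48 CPM on the control diet. Both sugar diet values were the higher ones, but the log2 change of 0.60 (SE 0.42, adjusted p = 0.521) rested on 13 to 22 counts per library. It was 1.09 without control diet replicate 1 and 0.20 without replicate 2, and was called in neither case.

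**Figure D2:**
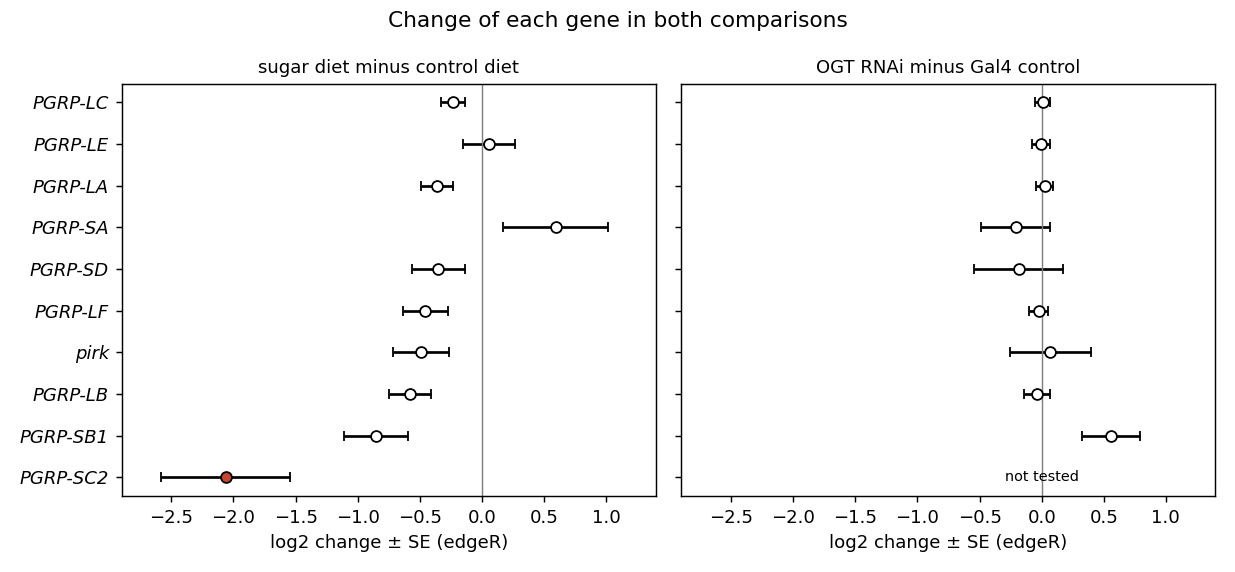
Log2 change with its SE (horizontal axis, edgeR) for each gene on the sugar diet minus control diet (left) and with OGT RNAi minus Gal4 control (right). A filled red point is called at an adjusted p under 0.05, which holds for PGRP-SC2 in the diet comparison alone; in the RNAi comparison 8 of the 9 points lie between -0.21 and 0.07 and PGRP-SB1 lies at 0.56.

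The rest of the Imd pathway did not move in 1 direction. Of 13 core genes, from the adaptor to Relish, 1 rose and 1 fell on the sugar diet, with a median log2 change of -0.00. The gene that rose was ben, a ubiquitin-conjugating enzyme, which averaged 398.1 ± 36.2 CPM in sugar diet and 251.8 ± 8.01 CPM in control diet libraries (SD, n = 2 each, a log2 change of 0.66, edgeR adjusted p = 6.06e-05). On the TPM scale, tested with limma, ben was not called (0.38, adjusted p = 0.395). The gene that fell was Rel, which averaged 160.9 ± 4.44 CPM in sugar diet and 202.9 ± 30.8 CPM in control diet libraries (n = 2 each, a log2 change of -0.33, edgeR adjusted p = 0.0494). Its call ended without control diet replicate 1 (-0.17, adjusted p = 0.736) and with DESeq2 (adjusted p = 0.149). Of 8 brakes of the pathway outside the 10 genes, 7 were tested and none was called, with a median of 0.08. The one with the smallest p was CYLD, a deubiquitinase (log2 change -0.23, edgeR adjusted p = 0.567). It was the only 1 of the 7 with a negative log2 change.

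Of 18 Toll pathway genes 3 fell and none rose on the sugar diet, with a median of -0.06. They were modSP, a protease at the head of the extracellular cascade (log2 change -0.56, adjusted p = 0.00286), GNBP2, of the glucan-binding protein family (-0.52, adjusted p = 0.0454), and nec, a serpin that restrains the cascade (-0.37, adjusted p = 0.0464). None of the 3 kept its call without control diet replicate 1, and 1 kept it without control diet replicate 2.

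Of 16 antimicrobial peptide genes, outputs of both pathways, 10 were tested, 4 fell and none rose on the sugar diet by edgeR, with a median of -0.65. The count called was 2 with DESeq2 (Dro and Def, with AttB at an adjusted p of 0.165 and none given for Drs), 7 with no filter on low counts and 9 with limma on TPM. The change of Dro, drosocin, was -2.16 on the log2 scale (SE 0.18). Def, defensin, and Drs, drosomycin, had log2 changes of -1.92 and -2.10, and AttB, attacin-B, had -0.71, although its reads may be shared with its near-identical neighbour AttA. Without control diet replicate 1 the call of Drs ended (-1.87, adjusted p = 0.166), and without replicate 2 that of AttB (-0.42, adjusted p = 0.485). The summed level of the list was 582.0 and 701.8 CPM in sugar diet and 600.9 and 643.2 CPM in control diet libraries. On the control diet Dro, Def, Drs and AttB averaged 37.9, 13.4, 4.98 and 25.6 CPM. They were thus a small part of this sum, which could not show their fall. Of the 10 tested genes, 9 had a negative log2 change, against 49.4% of all genes. An unadjusted p under 0.05 by edgeR was reached by 7 of them, against 17.7% of all genes.

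Markers of other cell types moved with diet as well. Of 11 fat body markers 8 were tested, 7 fell and 1 rose. Among those that fell were FASN1, the fatty acid synthase gene (log2 change -1.24), and Lsp1beta, a storage protein gene (-1.35). Their summed level was 1750 and 1789 CPM on the sugar diet, against 2756 and 2844 CPM on the control diet, and Yp1 was at 0 on the sugar diet. Leaving out control diet replicate 1 or replicate 2 left 3 of the 8 calls in each case. Of 7 gut markers 2 were tested and both fell, LManII (-1.12) and the protease gene Jon25Bi (-0.90), with sums of 78.1 and 103.0 CPM in sugar diet and 193.2 and 185.0 CPM in control diet libraries. Jon65Ai and Jon99Ci were at 0 in all 4 diet libraries, as were Jon25Bii on the sugar diet and betaTry on the control diet.

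Of 7 muscle markers 4 rose and none fell on the sugar diet by edgeR, while 0 were called with limma on TPM and 7 without sugar diet replicate 2. Their sums were 17150 and 14850 CPM in sugar diet and 12140 and 11900 CPM in control diet libraries. None of those 4 calls held without control diet replicate 1, and 1 held without replicate 2. Of 10 tracheal and epidermal markers 3 rose by edgeR (serp, bnl and verm), against 0 called with limma on TPM and 1 with DESeq2, and none of these calls held without either control diet library. Of 7 tested haemocyte markers vkg, a collagen gene, rose (0.64), He was at 0 in all 4 diet libraries, and the sums were 249.7 and 207.7 CPM in sugar diet and 205.9 and 197.9 CPM in control diet libraries. The call of vkg also ended without either control diet library (adjusted p = 0.0613 and 0.0908). Of 9 tested labellum and taste markers Obp49a fell (-0.33), a call lost when either control diet library or sugar diet replicate 1 was left out, and it was not called with limma on TPM. Of 7 neuron markers none was called by edgeR (fne, 0.34, adjusted p = 0.0861), although fne passed with no filter on low counts (adjusted p = 0.0120) and without sugar diet replicate 2 (0.53, adjusted p = 4.447e-06). The part of these cell types in the values of the PGRP genes and pirk was not tested.

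The second comparison addressed knockdown of OGT in sweet neurons under the sugar diet. None of the 10 genes was called, and the levels of both groups overlapped for each. The receptor genes PGRP-LC, PGRP-LE, PGRP-LA and PGRP-LF had log2 changes between -0.02 and 0.02. PGRP-SB1 had the largest log2 change among the tested genes and lay in the positive direction, opposite in sign to its value in the diet comparison. PGRP-SC2 was close to 0 counts except in OGT RNAi replicate 5.

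The count of called genes was 0 of 9 tested, against 1.27% of the 9399 genes tested. With DESeq2 and with limma on TPM it was also 0. An unadjusted p under 0.05 was reached by 1 of the 9, against 12.9% of all genes, and groups that did not overlap were found for 0 of the 9, against 5.54%. The median log2 change was -0.01 over the 9 genes and 0.00 over all genes, with 5 negative and 4 positive. None of these shares exceeded the background.

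**Figure D3:**
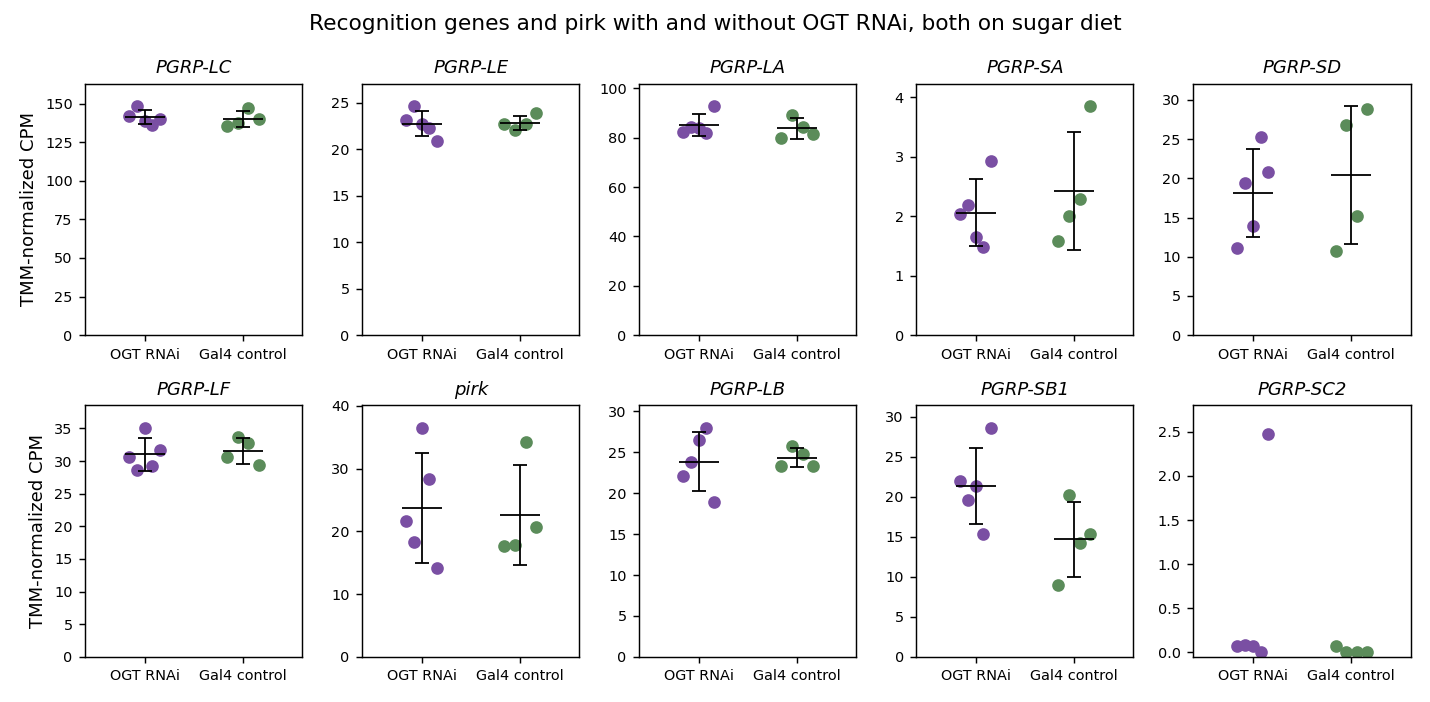
TMM-normalized CPM of the 10 genes in OGT RNAi (left, purple, n = 5) and Gal4 control (right, green, n = 4) libraries, 1 point per library, with mean and SD except for PGRP-SC2, where only points are drawn. The groups overlap in every panel, and for PGRP-SC2 a single OGT RNAi point at 2.48 CPM stands above the others, which are at or under 0.0878 CPM.

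Among the receptors, PGRP-LC had 142.3, 148.2, 138.9, 136.2 and 139.9 CPM in OGT RNAi libraries, against 135.8, 137.3, 147.4 and 140.2 CPM in Gal4 control libraries. The spread was small in both groups and the ranges nearly coincided (log2 change 0.01, SE 0.06, adjusted p = 0.969). PGRP-LE had 23.2, 24.6, 22.7, 22.3 and 20.9 CPM in OGT RNAi libraries, against 22.7, 22.01, 22.8 and 23.8 CPM in Gal4 control libraries (-0.01, SE 0.07, adjusted p = 0.982). PGRP-LA averaged 85.1 ± 4.34 CPM with OGT RNAi and 83.8 ± 4.16 CPM in Gal4 controls (SD, n = 5 and 4, log2 change 0.02, SE 0.07, adjusted p = 0.931). For PGRP-LC, PGRP-LE, PGRP-LA and PGRP-LF the SE was at most 0.08, so these were the most precisely measured genes of the group. The sign of these small changes varied with the setting.

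The circulating sensors were more spread. PGRP-SD had 11.1, 19.4, 13.9, 25.2 and 20.8 CPM in OGT RNAi libraries, against 10.7, 26.8, 15.2 and 28.8 CPM in Gal4 control libraries (log2 change -0.19, SE 0.36, adjusted p = 0.881). PGRP-SA had 2.03, 2.19, 1.65, 1.48 and 2.92 CPM in OGT RNAi libraries, against 1.58, 1.99, 2.29 and 3.84 CPM in Gal4 control libraries (-0.21, SE 0.28, adjusted p = 0.814). Each of these genes varied by about as much within a group as between any libraries of the experiment, and without Gal4 control replicate 4 both log2 changes were positive (0.03 for PGRP-SD and 0.10 for PGRP-SA).

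Among the inhibitors and amidases, PGRP-SB1 had 21.99, 19.7, 21.3, 15.4 and 28.6 CPM in OGT RNAi libraries, against 8.93, 20.3, 14.2 and 15.4 CPM in Gal4 control libraries. The highest value belonged to an OGT RNAi library and the lowest to a Gal4 control library, with overlap between them. The log2 change was 0.56 (SE 0.23, unadjusted p = 0.0395, adjusted p = 0.354 by edgeR), and over the other 16 settings it lay between 0.37 and 0.75 and was never called. In the authors' deposited table its q was 0.187, and no member of the group reached a q under 0.05 there in either comparison.

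The gene pirk had 21.7, 18.3, 36.4, 28.3 and 14.2 CPM in OGT RNAi libraries, against 17.6, 17.8, 34.3 and 20.8 CPM in Gal4 control libraries (log2 change 0.07, SE 0.33, adjusted p = 0.961). The highest pirk value with OGT RNAi was 36.4 CPM, with the next at 28.3 CPM. In Gal4 controls the highest was 34.3 CPM, with the next at 20.8 CPM. PGRP-LB had 22.1, 23.9, 26.5, 28.0 and 18.9 CPM in OGT RNAi libraries, against 23.3, 25.8, 24.9 and 23.4 CPM in Gal4 control libraries (-0.04, SE 0.10, adjusted p = 0.934). PGRP-LF averaged 31.0 ± 2.55 CPM with OGT RNAi and 31.6 ± 1.97 CPM in Gal4 controls (SD, n = 5 and 4, log2 change -0.02, SE 0.08, adjusted p = 0.941).

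PGRP-SC2 had 1, 1, 1, 0 and 34 counts in OGT RNAi replicates 1 to 5, against 1, 0, 0 and 0 counts in Gal4 control replicates 1 to 4. It did not pass the filter on low counts and was not tested. In OGT RNAi replicate 5 its level was 2.48 CPM, with an exact Poisson interval of 23.6 to 47.5 counts (95%), and in the other 8 libraries of the experiment it was at or under the 3 counts that a 0 allows. The summed gut markers of that library were 272.9 CPM, within the OGT RNAi range of 237.8 to 349.6 CPM. Most of this sum is LManII, which averaged 256.4 CPM in OGT RNAi libraries, so it says little of the other gut markers. The summed neuron markers of OGT RNAi replicate 5 (296.5 CPM) and its summed fat body markers (2696 CPM) were each the lowest of the 9 libraries. The gene most like PGRP-SC2 across all 13 libraries, among 8614 genes, by Pearson correlation of log2 CPM centred on the mean of each experiment, was CG33722 (r = 0.924), followed by CG2100 (0.903), Cht5 (0.868), DnaJ-H (0.848) and Tsc1 (0.836). Without OGT RNAi replicate 5 these values lay between 0.669 and 0.909, and since PGRP-SC2 had few counts they are descriptions only.

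Of all genes in the pathway and cell type lists, 1 was called in the RNAi comparison by edgeR. DESeq2 called 1 Toll pathway gene, 1 fat body marker, 1 haemocyte marker and 2 tracheal and epidermal markers. The gene called by edgeR was serp, a chitin deacetylase of trachea and epidermis, with 68.5 ± 10.3 CPM in OGT RNAi and 50.2 ± 3.44 CPM in Gal4 control libraries (SD, n = 5 and 4, log2 change 0.45, edgeR adjusted p = 0.0437). Its call ended when any of OGT RNAi replicates 1 to 3 or of the Gal4 control replicates was left out, with adjusted p between 0.0703 and 0.169, and with limma on log2(TPM + 1) (0.151). None of 13 core Imd genes was called (Uev1A, the partner of ben, -0.17, adjusted p = 0.251). None of the 7 tested Imd brakes outside the 10 genes was called (dnr1, an inhibitor of the caspase Dredd, -0.25, adjusted p = 0.236). None of 6 tested antimicrobial peptide genes was called (AttA, -0.78, adjusted p = 0.663). Of 18 Toll pathway genes none was called by edgeR, with the receptor gene Tl closest (-0.40, adjusted p = 0.0596). Tl did pass with DESeq2 (-0.41, adjusted p = 0.00977), with no filter on low counts (0.0242), with limma on log2(TPM + 1) (0.0477) and without OGT RNAi replicate 2 or 4 (0.0456 and 0.0203).

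Among the cell type markers of this experiment, the smallest p in each list belonged to the fat body gene to (1.34, adjusted p = 0.146), the haemocyte gene PPO1 (1.54, adjusted p = 0.144), the gut gene LManII (-0.14, adjusted p = 0.352), the taste receptor gene Gr64d (-0.48, adjusted p = 0.158), the neuronal gene nSyb (-0.15, adjusted p = 0.598) and the muscle gene Tm1 (-0.07, adjusted p = 0.729). None of these was called by edgeR with all libraries and the filter on low counts. DESeq2 called to (adjusted p = 0.00581) and PPO1 (0.00334), and edgeR called PPO1 without OGT RNAi replicate 1 (1.74, adjusted p = 0.0333) or Gal4 control replicate 4 (2.06, adjusted p = 0.0365). The summed gut markers were 237.8 to 349.6 CPM with OGT RNAi and 346.0 to 394.6 CPM in Gal4 controls, and the summed fat body markers were 2696 to 3461 CPM with OGT RNAi and 3150 to 3799 CPM in Gal4 controls.

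Within the RNAi experiment, with more replicates, the genes fell into a steady and a variable set. The coefficient of variation (CV, SD over mean) of PGRP-LC was 3.21% in OGT RNAi and 3.70% in Gal4 control libraries. PGRP-LE (5.95 and 3.30%), PGRP-LA (5.09 and 4.96%) and PGRP-LF (8.21 and 6.24%) were also below the median over all tested genes, which was 10.97% in OGT RNAi and 9.35% in Gal4 control libraries. The CVs of pirk were 37.0 and 35.0%, those of PGRP-SD 31.0 and 43.1%, those of PGRP-SB1 22.3 and 31.7%, and those of PGRP-SA 27.3 and 40.7%. For pirk, 95.5% of tested genes in OGT RNAi and 95.8% in Gal4 control libraries had a lower CV.

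Counting error alone would give a CV of 5.99 and 6.14% for pirk and 6.93 and 6.45% for PGRP-SD, so the spread of these genes was larger than the depth sets. For PGRP-SA it would give 19.9 and 18.7%. Part of the spread followed the replicate number: for PGRP-SD, replicates 1 to 4 had the same order in both groups. For pirk, replicate 3 was highest in both groups. PGRP-LB was intermediate, with 15.1% in OGT RNAi and 4.86% in Gal4 control libraries. The 4 steady genes are surface or cytoplasmic receptors and the decoy PGRP-LF, while the variable set holds the intracellular pirk and secreted proteins. These sets were formed after the CVs were seen, and a link to the place of the protein was not tested. PGRP-LE is also found outside cells, and the amidase PGRP-LB belongs to neither set.

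**Figure D4:**
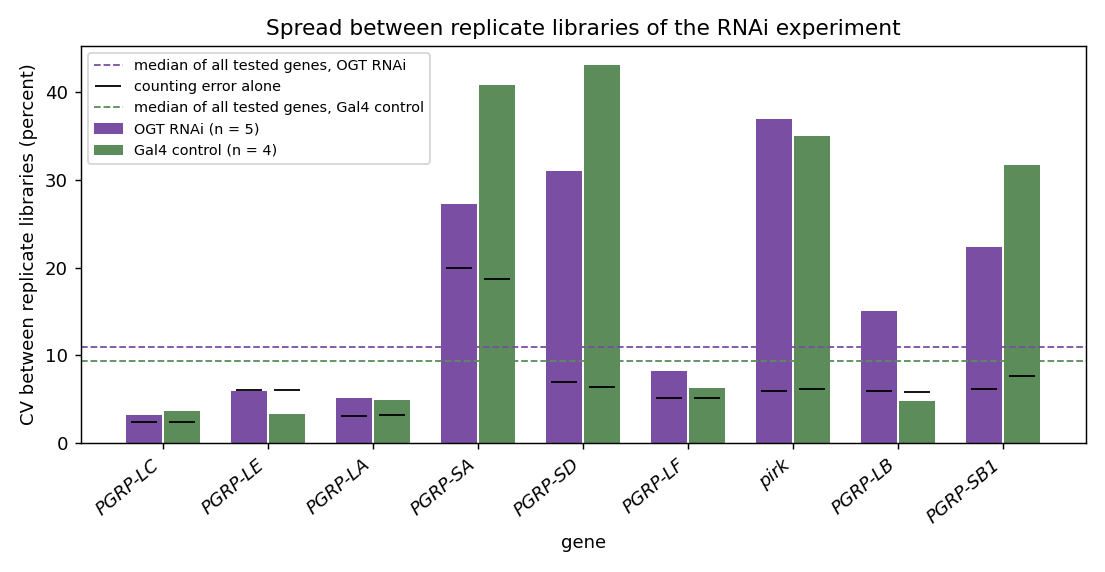
Coefficient of variation between replicate libraries (vertical axis, percent) of 9 genes in OGT RNAi (purple, n = 5) and Gal4 control (green, n = 4) libraries, with black marks for the CV expected from counting error and dashed lines for the median of all tested genes. PGRP-LC, PGRP-LE, PGRP-LA and PGRP-LF lie below both dashed lines, and PGRP-SA, PGRP-SD, pirk and PGRP-SB1 lie above them in both groups.

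PGRP-LC, PGRP-LA and PGRP-LB are each made as several transcripts. Some forms of PGRP-LC differ in the extracellular domain that binds peptidoglycan, but its transcripts here also start at different positions. PGRP-LC-RD starts at 9338810 and PGRP-LC-RE at 9344200 on chromosome 3L, against 9340438 for PGRP-LC-RA. Shares of each gene's TPM were compared for the transcripts with a mean share of 5% or more, and none of 20 comparisons was called (exact permutation tests over libraries, two-sided, adjusted over the 20). In the diet experiment 2 libraries against 2 cannot give a p under 0.3333, so its values are descriptions. In the RNAi experiment the smallest p was 0.0556 (adjusted p = 0.556, exact permutation test, n = 5 and 4), for PGRP-LB-RF and PGRP-LA-RF. PGRP-LB-RF held 37.0 ± 4.63% of PGRP-LB with OGT RNAi and 30.6 ± 2.51% in Gal4 controls (SD), a difference of 6.45 percentage points. PGRP-LA-RF held 38.8 ± 1.29% of PGRP-LA with OGT RNAi and 35.4 ± 2.87% in Gal4 controls, a difference of 3.44 percentage points. The main transcripts were close between these groups, with 55.6 ± 2.01 and 56.4 ± 1.36% for PGRP-LA-RD and 54.3 ± 4.41 and 55.3 ± 7.80% for PGRP-LB-RC.

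On the diets, PGRP-LB-RF held 25.1 and 26.1% of PGRP-LB on the sugar diet, against 17.0 and 14.6% on the control diet. PGRP-LB-RC held most of the gene, with 66.8 and 62.0% on the sugar diet and 66.4 and 56.5% on the control diet. PGRP-LA-RD held 48.7 and 39.5% of PGRP-LA on the sugar diet, against 67.2 and 51.5% on the control diet. Only for PGRP-LB-RF and PGRP-LA-RD among these 3 did the diets not overlap. Both had a p of 0.3333 in the exact permutation test, the lowest that 2 libraries against 2 can give. On another measure, gene-level CPM, the diets did not overlap for 47.5% of all genes tested. Transcript shares rest on the division of shared reads by kallisto, and at 107.9 to 262.9 counts for PGRP-LB per diet library they are less certain than the gene sums.

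The transcripts of PGRP-LC were divided differently in the 2 experiments. PGRP-LC-RB held 47.6 ± 1.63% with OGT RNAi and 48.1 ± 1.05% in Gal4 controls (SD, n = 5 and 4), and PGRP-LC-RA held 22.5 ± 4.13 and 20.8 ± 3.52%. In the diet libraries PGRP-LC-RA was at or near 0, and PGRP-LC-RD held 31.6 and 35.3% on the sugar diet and 34.4 and 31.6% on the control diet, against 1.06 to 5.00% in the libraries of the RNAi experiment. Kit, input and genotype differ between the experiments and cannot be told apart here.

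**Figure D5:**
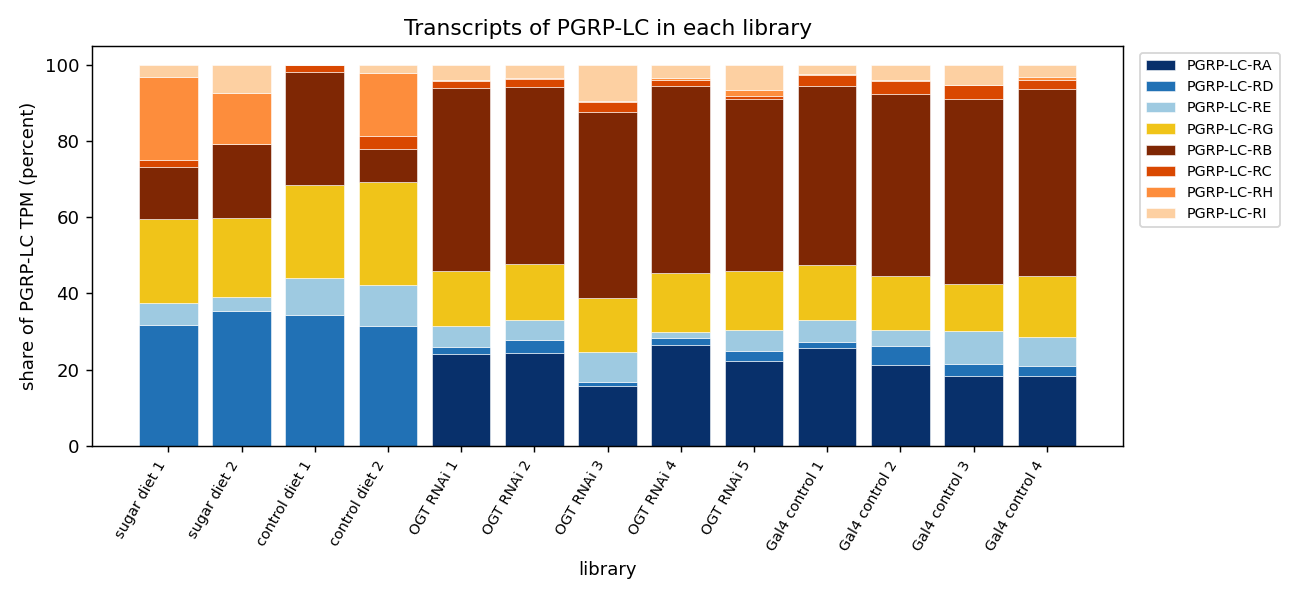
Share of PGRP-LC TPM (vertical axis, percent) held by each of its 8 transcripts, 1 bar per library, in sugar diet, control diet, OGT RNAi and Gal4 control libraries. PGRP-LC-RA (darkest blue, at the base) takes 15.7 to 26.5% in the 9 libraries of the RNAi experiment and is near 0 in the 4 diet libraries, where PGRP-LC-RD takes 31.6 to 35.3%.

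The 8 transcripts of PGRP-LC end at 3 positions, a grouping made after their values were seen. The 4 that end at position 9348336 of chromosome 3L (RB, RC, RH and RI) together held 40.2 and 40.4% on the sugar diet, against 30.8 and 31.6% on the control diet. The 3 that end at 9346266 (RA, RD and RE) held 37.6 to 39.1% on the sugar diet, against 42.2 to 43.9% on the control diet. PGRP-LC-RG, which ends at 9347263, held 22.1 and 20.7% on the sugar diet, against 24.5 and 27.0% on the control diet. The diets did not overlap in these sums, which add to the whole gene and so are not independent of each other. On another measure, gene-level CPM, 47.5% of all tested genes did not overlap between 2 libraries and 2. With OGT RNAi and in Gal4 controls the corresponding means were 55.3 ± 3.37 and 55.2 ± 2.11%, 29.9 ± 3.15 and 30.5 ± 1.86%, and 14.8 ± 0.622 and 14.3 ± 1.59% (SD, n = 5 and 4), which differed by less than the SD of either group.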

How the data were processed

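Per the submitters' processing notes, reads were trimmed with Trimmomatic 0.22 and quantified with kallisto 0.43, and differences were tested with sleuth. The deposited tables give, per transcript and library, the authors' estimated counts without normalization (74.6% of those above 0 not whole), their TPM and the effective transcript length. The authors' result tables hold p-values, q-values and an effect in natural log (ln) units. The scale was checked on gene sums: the natural log difference over the deposited effect had a median of 0.988 and 0.998 in the 2 tables. The genome build and annotation are not given in the sources used here. Positions are from the BDGP6 annotation and were identical to those in the authors' tables for 9888 of 9937 genes and for all 10 genes described here.

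Estimated counts were summed per gene and rounded. The 52 targets without a gene (0.042 to 0.0569% of counts) were left out. Of all genes, 177 with more than 50 counts had counts identical to another gene, and none of the 10 was among them. The 2 comparisons were fitted separately with edgeR 4.0.16 in R 4.3.3 (filterByExpr with minimum count 10 and minimum total 15, TMM, robust quasi-likelihood F test, two-sided) and adjusted over all genes tested. SE is the log2 change over the square root of F. Alternatives were DESeq2 1.42.0, limma 3.58.1 on log2(TPM + 1) and log2(TPM + 0.1), other size factors, no filter, a length offset, a replicate block and each library left out. The edgeR fit was tested on simulated data. Figures used matplotlib 3.10.9 in Python 3.11.15.

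The 10 genes and the gene lists were chosen with earlier results of these data known. Of the other lists, up to 4 called genes with the smallest adjusted p are named, or the 1 with the smallest p where none was called. For PGRP-SC2 the 5 most correlated genes are named. Replicates are biological per the series text. No sequences are printed.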

Additional observations from a re-analysis of the deposited data

Results flagged for a closer look

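A library counted as standing apart when its gap to the nearest other library, over the range of its group, passed Dixon's 95% critical value. In all 38 sets of values were examined this way and 5 were found. The critical value gives about 1 in 20 by chance only for normally distributed values. Counts near 0 and shares at 0 are not such values, and a single count beside zeros always passes. The 5 sets therefore cannot be read as more than chance gives. PGRP-SC2 had 2.479 CPM in OGT RNAi replicate 5, against 0.0878 CPM in the next library of that group. It had 0.075 CPM in Gal4 control replicate 1, a single count, against 0 in the other 3. PGRP-LA had 92.68 CPM in OGT RNAi replicate 5, against 84.5 CPM in the next library. The transcript PGRP-LB-RE held 0.0% of PGRP-LB in OGT RNAi replicate 3, against 3.97% in the next library, and PGRP-LB-RF held 34.3% in Gal4 control replicate 1, against 29.8% in the next. Without OGT RNAi replicate 5 the log2 change of PGRP-LA was -0.01.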

How the results depend on the processing

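Over the alternative settings, the count of the 10 genes called in the diet comparison (1 as reported, PGRP-SC2) was 3 with no filter on low counts (PGRP-LB, PGRP-SB1 and PGRP-SC2), 2 with a length offset (PGRP-LB and PGRP-SC2) and 4 with limma on log2(TPM + 1) or log2(TPM + 0.1), which added PGRP-LF. It was 0 with DESeq2, which gave no adjusted p for PGRP-SA, PGRP-SB1 and PGRP-SC2, and 0 to 3 with 1 library left out. The TPM scale moved the median log2 change of all genes on the sugar diet to -0.25 and -0.28. Genes called in the diet comparison (571) numbered 314 with DESeq2 and 195 to 938 with 1 library left out. In the RNAi comparison (119) they numbered 252 with DESeq2 and 42 to 264 with 1 library left out, and none of the 10 genes was called in any setting. No transcript share was called in any setting. The cause of these differences was not tested.

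Over many genes at once, same-numbered libraries did not deviate together (r = -0.002 in the diet pairs, and 0.136, -0.488, -0.045 and -0.148 in the RNAi pairs). Single genes could differ from this. PGRP-SD had 11.1, 19.4, 13.9 and 25.2 CPM in OGT RNAi replicates 1 to 4, against 10.7, 26.8, 15.2 and 28.8 CPM in Gal4 control replicates 1 to 4. For pirk, replicate 3 was highest in both groups (36.4 and 34.3 CPM). PGRP-SA and PGRP-SB1 had no such shared order. The cause was not tested. With the replicate number as a block, 728 genes and 3 of the 10 (PGRP-LB, PGRP-SB1 and PGRP-SC2) were called in the diet comparison, and 63 genes in the RNAi comparison, where OGT RNAi replicate 5 has no partner and drops out of the estimate. With this replicate block, PGRP-LA (-0.0082), PGRP-LB (0.0376) and PGRP-LE (0.0239) changed sign in the RNAi comparison. With the block fne (diet, adjusted p = 0.0243) and PPO1 (RNAi, 0.0323) were called and serp (RNAi, 0.150) was not.

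Other sign changes concerned values that were not called. On the TPM scale, with pseudocounts of 1 and 0.1, PGRP-LE had -0.157 and -0.168 in the diet comparison, and in the RNAi comparison PGRP-LA had -0.0219 and -0.0222 and PGRP-LC -0.0284 and -0.0287. With 1 library left out, diet log2 changes ranged from -0.0969 to 0.237 for PGRP-LE and from -0.114 to 0.815 for PGRP-LD. RNAi log2 changes ranged from -0.0149 to 0.0422 for PGRP-LA, -0.014 to 0.0348 for PGRP-LC, -0.105 to 0.0341 for PGRP-LB and -0.0374 to 0.018 for PGRP-LE. They ranged from -0.218 to 0.0105 for PGRP-LD, -0.0757 to 0.0048 for PGRP-LF, -0.150 to 0.339 for pirk, -0.378 to 0.1004 for PGRP-SA and -0.405 to 0.0278 for PGRP-SD. Differences in share ranged from -0.964 to 0.0511 percentage points for PGRP-LC-RB, -3.58 to 2.57 for PGRP-LB-RC and -0.219 to 1.07 for PGRP-LC-RG.

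With 2 libraries per diet, the spread within each diet rests on a single difference. Depth limits PGRP-SC2 most, with 5 counts or fewer in 10 of the 13 libraries.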
